A study of Mus musculus with 11 samples.

Results

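The 9 genes followed here feed back on NF-κB or are induced by it, and they were measured across the cell types and genotypes of mouse cortex: Nfkbia, Nfkbie, Nfkbiz, Tnfaip3, Tnip1, Bcl3, Traf3, Birc3 and Ikbke. They were found by their symbols, and all 9 were among the 31053 genes of the count matrices. The data were UMI counts from single nuclei, where a UMI is a molecular tag that stands for 1 captured RNA molecule. UMIs were summed per mouse over each cell type and given as CPM, the count scaled to a total of 1000000 UMIs.

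Nuclei came from the cortex of 11 mice that the labels give as female, in 4 genotype groups. The study's methods instead give the mice used for RNA-seq as male. Non-transgenic mice (ikbkb+/+, n = 4) had intact Ikbkb, which encodes the kinase IKKβ. P301S mice (ikbkb+/+;P301S+, n = 3) carried in addition the PS19 transgene, human tau with the P301S mutation. Knockout P301S mice (ikbkb-/-;P301S+, n = 2) carried that transgene, floxed Ikbkb and 1 allele of Cx3cr1-CreERT2, a tamoxifen-inducible recombinase in microglia and other cells that use Cx3cr1. Active IKKβ P301S mice (ikbkbCA;P301S+, n = 2) carried the transgene, the same Cre allele and a constitutively active IKKβ at the Rosa26 locus behind a floxed stop. The floxed or stop allele was present in the controls too, without Cre and with both Cx3cr1 alleles intact, and per the study's methods all mice were given tamoxifen, which induces Cre. Ages were 9.8 to 10.85 months in non-transgenic, 9.15 to 10.75 in P301S, 8.39 and 9.15 in knockout P301S and 10.85 and 9.8 in active IKKβ P301S mice. Both knockout mice came from the floxed line and both active mice from the active IKKβ line, so that between these groups genotype cannot be told apart from line within any line. Non-transgenic mice came from both lines (replicates 1 and 2 floxed, 3 and 4 active) and P301S mice too (1 and 2 floxed, 3 active), which allows fits within a line or with line as a covariate against either control group. Against either control group, genotype likewise cannot be told apart from the Cre allele and the loss of 1 intact Cx3cr1 copy.

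NF-κB dimers are held in the cytoplasm by IκB proteins until the IKK complex phosphorylates these inhibitors and marks them for degradation. The freed dimers enter the nucleus, bind κB sites, and among their targets are genes whose products switch the pathway off again, which in microglia and other innate immune cells limits the length of an inflammatory response. Nfkbia (IκBα) and Nfkbie (IκBε) are such cytoplasmic inhibitors. Nfkbiz (IκBζ) and Bcl3 are nuclear members of the IκB family that alter which target genes the dimers act on. Tnfaip3 (A20) is a ubiquitin-editing enzyme that dampens signals to IKK, and Tnip1 (ABIN1) is its binding partner. Traf3 and Birc3 (cIAP2) belong to the complex that destroys the kinase NIK and so restrains the non-canonical branch, and Birc3 also promotes the canonical branch. Ikbke (IKKε) is an inducible kinase related to IKK.

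Promoters with a match to the κB site are shown because NF-κB acts through such sites, whether or not the gene differed between genotypes. In the RefSeq promoter table of GRCm38.p6 (250 bases before to 50 after each start site), 8 of the 9 genes had an entry. The κB decamer consensus, searched on both strands, was present in 6 of these 8 and in 1480 of all 32851 promoters (4.51%). A looser pattern, GGG and CC with any 5 bases between them, contains the decamer as a special case and was in 7 of the 8 and in 16686 of all promoters (50.8%). The upstream 250 bases of Tnip1, whose microglial difference had the smallest adjusted p of the 9, and of Nfkbia are given whole, on the strand of the gene, with the κB matches in capitals. In Tnip1 the capitals span positions -58 to -47 and join 4 overlapping matches, and in Nfkbia they span -29 to -20.
Tnip1, chr11:54962941-54963190 (minus strand): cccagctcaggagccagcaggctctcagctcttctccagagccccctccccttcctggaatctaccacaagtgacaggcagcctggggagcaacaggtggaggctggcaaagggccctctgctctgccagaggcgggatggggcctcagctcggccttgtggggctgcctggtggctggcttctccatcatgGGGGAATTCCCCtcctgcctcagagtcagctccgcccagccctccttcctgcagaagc
Nfkbia, chr12:55492648-55492897 (minus strand): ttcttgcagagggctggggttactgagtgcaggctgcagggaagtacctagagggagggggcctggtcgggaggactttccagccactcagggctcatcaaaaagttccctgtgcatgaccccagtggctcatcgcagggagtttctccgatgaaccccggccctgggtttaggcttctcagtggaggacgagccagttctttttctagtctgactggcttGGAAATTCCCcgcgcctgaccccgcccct
For the other genes with a match, the decamer (capitals) is shown with 10 bases on either side, and Tnfaip3 has 2 matches in 1 promoter.
Nfkbie, chr17:45555584-45555613 (plus strand): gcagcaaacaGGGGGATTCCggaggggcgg
Bcl3, chr7:19822734-19822763 (minus strand): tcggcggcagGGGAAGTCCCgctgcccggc
Tnfaip3, chr10:19015516-19015545 (minus strand): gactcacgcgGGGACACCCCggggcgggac
Tnfaip3, chr10:19015403-19015432 (minus strand): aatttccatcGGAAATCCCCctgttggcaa
Traf3, chr12:111166350-111166379 (plus strand): ggcggcccgcGGGGATTTCCagcgcgcgag
The decamer was not found in the promoters of Birc3 and Ikbke. A match is a string of letters in this window and was not measured as a binding site.

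Each of the 11 libraries held 72007219 to 93205362 UMIs, and 103065 of 114118 barcodes passed the filters. Of these, 5702 nuclei formed a shallow cluster led by mitochondrial genes (median 943 UMIs), which was left unnamed and enters no value given here. Pairs of libraries shared 15 to 45 barcodes. The microglia-like cluster had all 14 of its listed markers raised, with 6 of them among its 10 leading genes, and held 4356 nuclei (1086 non-transgenic, 1285 P301S, 729 knockout, 1256 active IKKβ). The median depth of a microglia-like nucleus was greater in active IKKβ mice (2333.5 and 2490.5 UMIs) than in non-transgenic (1693 to 2140) and P301S mice (1443.5 to 2033.5), and CPM corrects for this in the level but not in the precision. Ikbkb itself, in non-transgenic replicates 1 to 4, read 156, 124, 143 and 135 CPM in these nuclei, then 154, 131 and 140 in P301S, 112 and 115 in knockout and 162 and 150 in active IKKβ mice. The knockout mice had the lowest values, although the difference from P301S mice did not pass the test (log2 fold change -0.31, edgeR adjusted p = 0.614). The active IKKβ mice overlapped the controls, with 150 CPM in replicate 2 against 156 in non-transgenic replicate 1 and 154 in P301S replicate 1. Since reads were counted over the whole transcript, introns included, this level does not check the deletion, and the active allele is not visible in it. By qPCR of microglia isolated from adult mice, the study reported less Ikbkb mRNA with the deletion and more with active IKKβ.

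Across the 9 cell types with enough nuclei in every mouse, microglia-like nuclei had the highest mean level of 8 of the 9 genes over all mice, and of 5 when the non-transgenic mice alone were averaged. In those mice Nfkbia was highest in pericyte or mural-like (19.7 ± 23.0 CPM, SD, n = 4, against 11.5 ± 9.89 in microglia-like), Tnip1 in oligodendrocyte-like (29.1 ± 7.55 against 25.2 ± 6.14) and Bcl3 in fibroblast-like nuclei (3.88 ± 4.54 against 2.71 ± 2.21). Nfkbia was at 0 in pericyte or mural-like nuclei of non-transgenic replicates 1 and 4, which allows up to 36.0 and 31.4 CPM (3 counts each). Bcl3 was at 0 in fibroblast-like nuclei of the same mice, which allows up to 10.1 and 23.1 CPM. Over all 11 mice these types held 16 UMIs of Nfkbia and 14 of Bcl3, so their first places rest on few UMIs. Over all mice Ikbke was the exception, with 27.9 ± 13.9 CPM in fibroblast-like, 13.7 ± 3.74 in astrocyte-like and 12.6 ± 21.5 in microglia-like nuclei (SD, n = 11). The last mean pools genotypes that differ widely, with 1.71 ± 2.56 CPM in non-transgenic (n = 4) and 49.4 ± 32.6 in active IKKβ mice (n = 2). Neighbouring types in the order were compared mouse by mouse on log2(CPM + 1) with exact sign-flip permutation tests, 72 in all, of which 15 passed. For types at 0 in many mice the difference is set by the depth and by the added 1 CPM. The first place of microglia-like nuclei held beyond the spread for Nfkbie, which was higher than in the next type, oligodendrocyte precursor-like nuclei, in 11 of 11 mice as listed (difference 2.13 on the log2 scale, exact permutation adjusted p = 0.00879). In 1 of these, knockout replicate 2, the precursor-like nuclei were at 0, which allows up to 2.97 CPM against 2.09 in microglia-like nuclei. For Tnfaip3 the next type, pericyte or mural-like nuclei, held 3 UMIs in all, and the 9 mice at 0 there allow up to 15.6 to 45.3 CPM (3 counts each), above the microglial value in 8 of the 9, so that its first place could not be tested at this depth. For Nfkbiz, Tnip1, Bcl3, Traf3 and Birc3 the next type did not differ beyond the spread between mice. Nfkbia was higher in microglia-like than in astrocyte-like nuclei in 5 of 11 mice, and its log2 difference pointed the other way (-0.29).

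**Figure D1:**
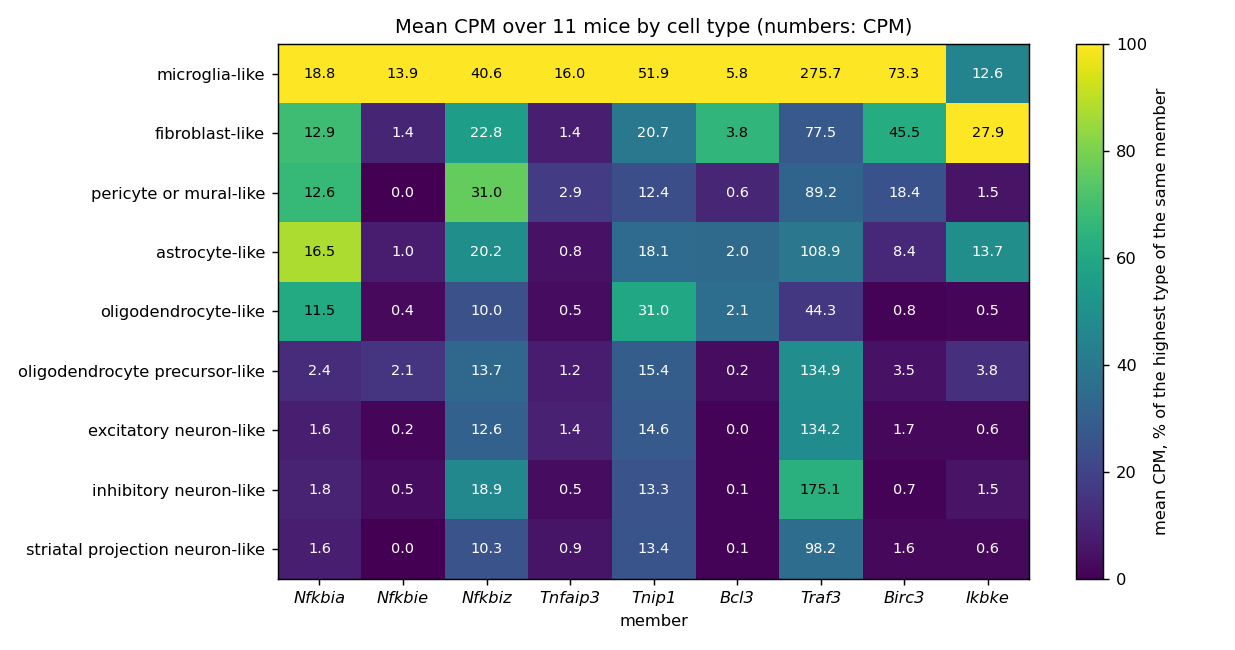
Mean CPM over 11 mice of each gene (columns) in each of 9 cell types (rows), with colour as a percent of the gene's highest type. Microglia-like nuclei are the highest row for 8 genes, and Ikbke is highest in fibroblast-like nuclei at 27.9 CPM.

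The inhibitors differed in where else they were found, by means over all 11 mice that pool the genotypes. Those of microglia-like nuclei include the active IKKβ mice. Their SDs were 17.5 CPM for Nfkbia, 10.0 for Nfkbie, 140 for Traf3 and 48.3 for Birc3, so they do not give the level of a single genotype. Nfkbia was at 18.8 CPM in microglia-like, 16.5 in astrocyte-like, 12.9 in fibroblast-like and 11.5 in oligodendrocyte-like nuclei, against 2.42 in oligodendrocyte precursor-like nuclei and 1.60 to 1.81 in the neuron-like types. Endothelial-like nuclei, too few to test (9 to 76 per mouse), had 192 ± 113 CPM of Nfkbia (SD, n = 11), more than any tested type. Nfkbie was at 13.9 CPM in microglia-like nuclei and at or below 2.12 in every other tested type. Traf3 was found in every type, from 44.3 CPM in oligodendrocyte-like to 175 in inhibitory neuron-like and 276 in microglia-like nuclei. Birc3 was at 73.3 CPM in microglia-like, 45.5 in fibroblast-like and 18.4 in pericyte or mural-like nuclei and at or below 8.43 in the other tested types, while the untested endothelial-like nuclei had 38.9. Fibroblast-like nuclei had more Birc3 than pericyte or mural-like nuclei in 11 of 11 mice (difference 1.29 on the log2 scale, exact permutation adjusted p = 0.00879).

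In microglia-like nuclei the clearest difference was a rise in the active IKKβ P301S mice. Against P301S mice 6 of the 9 genes were called higher (Nfkbie, Tnip1, Bcl3, Traf3, Birc3 and Ikbke), where 1.01% of all 8853 genes tested were called higher. Against non-transgenic mice 7 were called, with Nfkbia in addition, beside 2.49% of all genes, and against knockout P301S mice the same 7 were called beside 1.32%. Of the 7 calls against knockout mice, that of Tnip1 was the 1 left with line or with age as a covariate. A call required an edgeR adjusted p under 0.05 and an absolute log2 fold change over 0.1. These comparisons share the active IKKβ mice. Where a mouse is left out of a group of 2, the remaining mouse is assumed to vary like the other groups, which alone supply the spread, and such a lost call also reflects the smaller group. Nfkbie, Bcl3 and Ikbke passed the filter on low counts only through the active IKKβ mice, so a difference was required for them to be tested. The counts above, and the adjusted p and calls of these genes below, are therefore a description. For 8 of the 9 genes both active mice lay above all 9 other mice, which 4.69% of all tested genes did. The 9 genes were chosen with earlier results of these data known, so counts set beside such shares, here and below, are a description. The genes are taken by role, each with its values in replicate order. No other counted gene overlaps any of the 9 on the same strand, while Bcl3, Traf3 and Ikbke overlap 2, 1 and 2 counted genes on the opposite strand, and the kit keeps strand.

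Among the cytoplasmic inhibitors, Nfkbia (ENSMUSG00000021025, chr12:55489410-55492647) read 7.66, 3.61, 25.9 and 8.65 CPM in non-transgenic, 20.9, 5.03 and 20.6 in P301S, 13.3 and 2.09 in knockout and 41.0 and 58.1 in active IKKβ mice. The active mice were above every other mouse, and the rest overlapped widely. The rise was 2.12 ± 0.45 (SE) on the log2 scale relative to non-transgenic mice (edgeR adjusted p = 0.00591) and 2.31 ± 0.52 relative to knockout mice (edgeR adjusted p = 0.0156). Against P301S mice it was 1.58 ± 0.42 and missed the threshold (edgeR adjusted p = 0.0586). Without active IKKβ replicate 2 the difference from non-transgenic mice was 1.86 and that from knockout mice 2.05, and without knockout replicate 2 the latter was 1.86, none of which passed. The difference from knockout mice was 4.45 without knockout replicate 1 and 1.21, not called, with line as a covariate. Nfkbie (ENSMUSG00000023947, chr17:45555703-45563169) read 7.66, 16.2, 6.49 and 11.5 CPM in non-transgenic, 7.83, 11.7 and 10.3 in P301S, 13.3 and 2.09 in knockout and 31.8 and 33.5 in active IKKβ mice. The active mice were about level with each other and the other groups overlapped. Nfkbie rose by 1.65 ± 0.39 against P301S mice (edgeR adjusted p = 0.0261), by 1.55 ± 0.38 against non-transgenic mice (0.0198) and by 1.72 ± 0.44 against knockout mice (0.0408). Since Nfkbie was tested only because of its level in the active mice, these adjusted p and calls describe the rise and do not test it. The call against P301S mice was lost when any 1 of those 5 mice was left out, with differences of 1.58 to 1.74. That against non-transgenic mice was lost without non-transgenic replicate 1, 3 or 4 or either active mouse (1.39 to 1.58), and that against knockout mice without knockout replicate 2 (1.26) or either active mouse (1.76 and 1.70), and it was 3.85 without knockout replicate 1.

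Of the transcripts of the nuclear IκB family, Bcl3 was called and Nfkbiz was not, and the difference between the genes was not tested. Nfkbiz (ENSMUSG00000035356, chr16:55811375-55838899) read 43.4, 41.5, 32.4 and 47.6 CPM in non-transgenic, 26.1, 43.6 and 46.7 in P301S, 34.9 and 33.4 in knockout and 55.7 and 41.0 in active IKKβ mice. All groups overlapped except that both knockout mice lay below both active mice. No difference of Nfkbiz passed, with a log2 fold change of 0.21 ± 0.23 against P301S (edgeR adjusted p = 0.944), 0.19 ± 0.23 against non-transgenic and 0.48 ± 0.27 against knockout mice. Its direction against P301S and non-transgenic mice turned without active IKKβ replicate 1 (-0.03 and -0.05), while thinning gave 0.57 and 0.63 and, against knockout mice, 0.20. Without active IKKβ replicate 2 the former were 0.42 and 0.39. Bcl3 (ENSMUSG00000053175, chr7:19808462-19822770) read 2.55, 5.41, 0 and 2.88 CPM in non-transgenic, 2.61, 1.68 and 5.49 in P301S, 2.49 and 2.09 in knockout and 18.4 and 19.8 in active IKKβ mice. The 0 allows up to 6.48 CPM (3 counts in that mouse), and the groups other than the active one held 6, 10 and 4 UMIs in all against 59. Bcl3 rose by 2.21 ± 0.54 against P301S (edgeR adjusted p = 0.0314), by 2.66 ± 0.58 against non-transgenic (0.00783) and by 2.91 ± 0.68 against knockout mice (0.0212). Bcl3 passed the filter only through the active mice, so its adjusted p and calls are a description of the rise. Leaving out either active mouse ended all 3 calls, with differences of 2.17 to 2.96. The call against P301S mice was also lost without P301S replicate 1 (2.12) or 2 (1.96), and that against knockout mice without knockout replicate 1 (3.08) or 2 (2.84).

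Of the ubiquitin-editing pair, Tnip1 was called and Tnfaip3 was not, and the difference between the genes was not tested. Tnip1 (ENSMUSG00000020400, chr11:54910785-54962917) read 23.0, 18.0, 32.4 and 27.4 CPM in non-transgenic, 31.3, 25.2 and 46.0 in P301S, 30.7 and 16.7 in knockout and 155 and 165 in active IKKβ mice. Both active mice stood far above the highest other mouse, P301S replicate 3. Tnip1 rose by 2.10 ± 0.22 against P301S (edgeR adjusted p = 4.25e-06), by 2.63 ± 0.23 against non-transgenic (1.1e-07) and by 2.59 ± 0.27 against knockout mice (3.42e-06), and stayed called under every alternative run for it. Tnfaip3 (ENSMUSG00000019850, chr10:19000910-19015657) read 5.11, 16.2, 10.8 and 13 CPM in non-transgenic, 7.83, 13.4 and 24.0 in P301S, 9.14 and 18.8 in knockout and 28.1 and 29.4 in active IKKβ mice. The active mice were the highest of all, but P301S replicate 3 was close to them. Its log2 fold changes of 0.68 ± 0.36 against P301S, 1.25 ± 0.38 against non-transgenic and 1.19 ± 0.43 against knockout mice did not pass (edgeR adjusted p = 0.638, 0.0745 and 0.19). That against non-transgenic mice was called with no filter (1.30) and with the compared groups alone (1.24). Against P301S mice the difference, called in none of these, was 1.31 without P301S replicate 3, 0.42 with line as a covariate and 0.26 within the active line. Against knockout mice it was, also uncalled, 0.59 without knockout replicate 1, 0.58 with line and 0.53 with age as a covariate.

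Both genes of the NIK-degrading complex rose. Traf3 (ENSMUSG00000021277, chr12:111166370-111267153) read 238, 144, 169 and 244 CPM in non-transgenic, 164, 211 and 318 in P301S, 275 and 192 in knockout and 529 and 549 in active IKKβ mice. The highest mouse outside the active group was P301S replicate 3. Traf3 rose by 1.15 ± 0.21 against P301S (edgeR adjusted p = 0.00296), by 1.41 ± 0.20 against non-transgenic (9.72e-05) and by 1.15 ± 0.24 against knockout mice (0.00772), the last of which did not pass without knockout replicate 2 (0.95) or with line (0.75) or age (1.01) as a covariate. Birc3 (ENSMUSG00000032000, chr9:7848699-7873186) read 69.0, 43.3, 30.3 and 66.3 CPM in non-transgenic, 36.5, 53.7 and 81.0 in P301S, 57.3 and 37.6 in knockout and 173 and 158 in active IKKβ mice. Again P301S replicate 3 was the highest of the others. Birc3 rose by 1.39 ± 0.24 against P301S (edgeR adjusted p = 0.00187), by 1.63 ± 0.24 against non-transgenic (0.000143) and by 1.70 ± 0.28 against knockout mice (0.000975), the last of which did not pass with line (1.37) or age (1.54) as a covariate.

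The kinase Ikbke (ENSMUSG00000042349, chr1:131254343-131279606) was close to absent from non-transgenic microglia-like nuclei, at 0, 5.41, 0 and 1.44 CPM, which were 4 UMIs in all and where the zeros allow up to 7.66 and 6.48 CPM. It read 0, 5.03 and 17.2 CPM in P301S, 8.31 and 2.09 in knockout and 26.3 and 72.5 in active IKKβ mice. The active mice differed from each other by a larger ratio than for any other gene of the 9, and both were above every other mouse. Ikbke rose by 2.17 ± 0.51 against P301S (edgeR adjusted p = 0.0261), by 4.56 ± 0.72 against non-transgenic (0.000306) and by 2.89 ± 0.65 against knockout mice (0.0149). As it passed the filter only through the active mice, its adjusted p and calls are a description of the rise. Without active IKKβ replicate 2 the difference from P301S mice was 1.34 and that from knockout mice 2.03, and neither passed. The call against P301S mice was also lost without P301S replicate 1 (1.90) or 2 (1.95), and that against knockout mice without knockout replicate 1 (4.43) or 2 (2.52) or with line as a covariate (1.46). Without P301S replicate 3 the difference from P301S mice was 3.90 and called. The difference from non-transgenic mice stayed called without any 1 mouse.

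**Figure D2:**
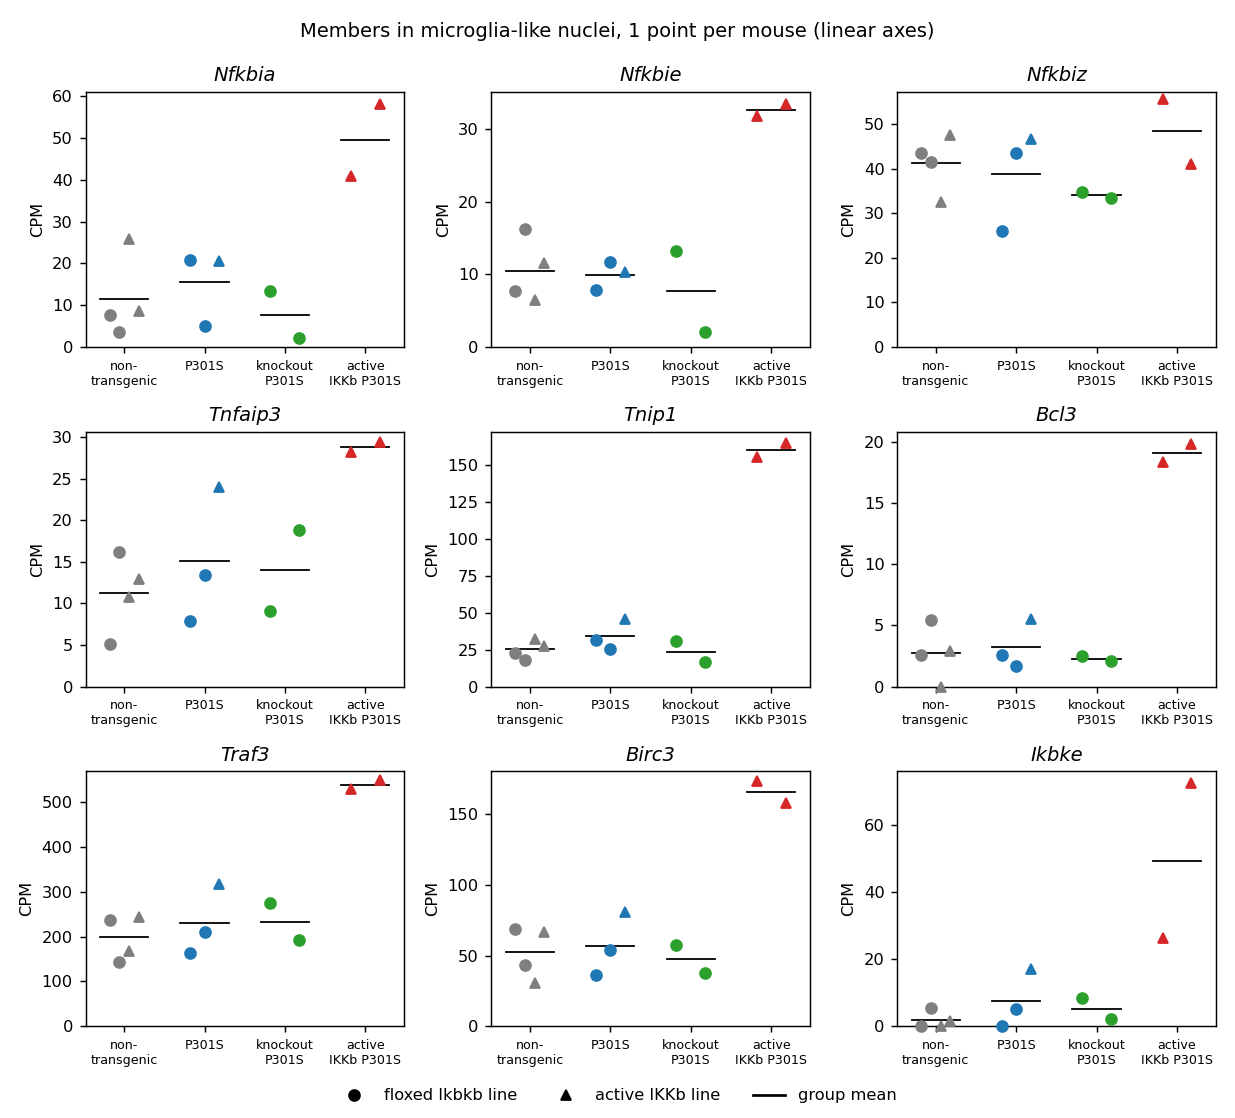
CPM of each gene in microglia-like nuclei, 1 point per mouse with the group mean as a line, circles for the floxed and triangles for the active IKKβ line. Both active IKKβ P301S mice lie above the other 9 mice for every gene but Nfkbiz (Tnip1 155 and 165 CPM against at most 46.0).

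**Figure D3:**
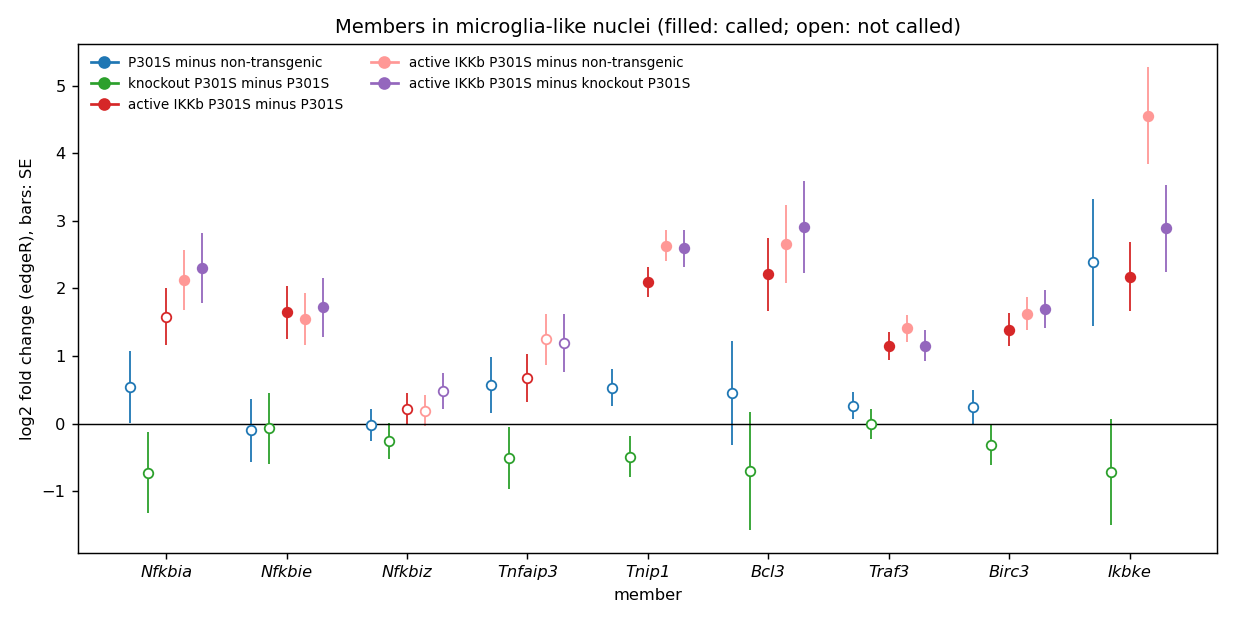
Log2 fold change with its SE (vertical axis) for each gene in 5 contrasts of microglia-like nuclei, filled where called. Filled points are found only in the contrasts with active IKKβ P301S mice, where those of Nfkbiz and Tnfaip3, and that of Nfkbia against P301S mice (1.58), are unfilled.

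P301S replicate 3, the P301S mouse of the active line, was the highest P301S mouse for Nfkbiz, Tnfaip3, Tnip1, Bcl3, Traf3, Birc3 and Ikbke. Within that line it is the single P301S mouse and the spread comes from the other groups, so only effect sizes are given. The differences from P301S mice were then 0.76 for Traf3, 1.03 for Birc3, 1.51 for Ikbke, 1.65 for Nfkbie and 1.77 for Bcl3. That of Tnip1 was at least 1.80 in every alternative. With line as a covariate 3 genes were called (Tnip1, Traf3 and Birc3), beside 49 of all 8853 genes called higher. Against the 2 non-transgenic mice of the active line 6 genes were called, all of the 7 above but Nfkbia (1.61), beside 189 of all 8853 genes called higher. Nfkbie, Bcl3 and Ikbke, which passed the filter only through the active IKKβ mice, are among the 6, so this count is a description.

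The tau transgene and the loss of IKKβ gave no call among the 9 genes. Between P301S and non-transgenic mice 0 genes were called by edgeR and 0 by DESeq2, beside 0.181% of all genes. The fold change was above 0 for 7 of the 9, with a median of 0.45 on the log2 scale against a median over all genes of -0.00122. Of the 9, 1 gene, Ikbke, had an unadjusted p under 0.05 (2.39 ± 0.94, edgeR adjusted p = 0.47), as did 729 of all 8853 genes. Tnip1 was at 0.53 ± 0.27 (edgeR adjusted p = 0.658). Without P301S replicate 3 the fold change of Ikbke was 0.64, and those of Tnfaip3 (-0.07), Bcl3 (-0.44), Traf3 (-0.06) and Birc3 (-0.17) were below 0. Of the rest, Nfkbia (0.06) and Tnip1 (0.14) were then above 0, and Nfkbie (-0.09) and Nfkbiz (-0.19) below, so that most of the 9 were below 0. Between knockout P301S and P301S mice 0 genes were called by either tool and 0 had an unadjusted p under 0.05. Of all 8853 genes 0% were called and 793 had an unadjusted p under 0.05. All 9 fold changes were below 0, from -0.01 for Traf3 and -0.07 for Nfkbie to -0.72 for Ikbke and -0.73 for Nfkbia, with a median of -0.49 against -0.02 over all genes. Every one of these values was within 2 SE of 0. The shared sign depended on single mice, on breeding line and on age. Without P301S replicate 3, Tnfaip3 (0.12), Bcl3 (0.18), Traf3 (0.31), Birc3 (0.09) and Ikbke (1.02) were above 0, and so were Nfkbie without P301S replicate 2 (0.02), Tnfaip3 without knockout replicate 1 (0.09), and Nfkbie (0.39) and Traf3 (0.21) without knockout replicate 2. After thinning Nfkbiz (0.37) and Traf3 (0.04) were above 0. P301S replicate 3 is of the active line, while both knockout mice are of the floxed line. Within the floxed line Tnfaip3 (0.13), Bcl3 (0.19), Traf3 (0.32), Birc3 (0.10) and Ikbke (1.03) were above 0. With line as a covariate Traf3 (0.18) and Ikbke (0.25) were, and with age Nfkbiz (0.07), Tnfaip3 (0.14) and Traf3 (0.12). Between knockout P301S and non-transgenic mice 0 genes were called by either tool, beside 0% of all genes. An unadjusted p under 0.05 was found for 0 of the 9 and for 458 of all 8853 genes. Of the 9 fold changes 4 were above 0, and every sign but that of Ikbke turned in some alternative. Nfkbia went from -0.18 to 0.52 with line as a covariate and 0.84 within line, and Tnip1 from 0.04 to -0.60 without knockout replicate 1. The SE of 0.23 to 0.87 in the knockout contrast limits what 2 mice could show, above all for Bcl3.

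In the other cell types no difference between genotypes passed for any of the 9 genes. Of 228 tests in 8 types and 6 contrasts, 0 were called by edgeR, beside 0.008% of all gene tests in these types. An unadjusted p under 0.05 was found in 20, a share that was not counted over all genes in these types. The number of genes tested ranged from 1 of the 9 in pericyte or mural-like to 8 in excitatory neuron-like nuclei. The smallest edgeR adjusted p was 0.204, for Bcl3 in oligodendrocyte-like nuclei between knockout P301S and P301S mice (-2.11 ± 0.79). In P301S mice Bcl3 read 1.27, 1.62 and 9.5 CPM there and 0.956, 2.06 and 7.61 in astrocyte-like nuclei, so that P301S replicate 3 stood apart from the other P301S mice in both types. Traf3 in fibroblast-like nuclei read 57.3, 63.7, 75.1 and 76.9 CPM in non-transgenic, 73.5, 57.7 and 57.1 in P301S, 73.6 and 85.2 in knockout and 106 and 127 in active IKKβ mice. The active mice were the highest, with 0.94 ± 0.29 against P301S mice (edgeR adjusted p = 0.504). Active IKKβ replicate 1 had 19 fibroblast-like nuclei with 66293 UMIs in all, so its value rests on few UMIs. The share of all genes with both active mice highest in this type was not counted. Whether the change of Traf3 differed between microglia-like and fibroblast-like nuclei was not tested. Tnip1 in oligodendrocyte-like nuclei, the second highest type for this gene, read 26.7, 28.3 and 33.3 CPM in P301S and 31.4 and 37.3 in active IKKβ mice, which overlapped (0.22 ± 0.18).

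**Figure D4:**
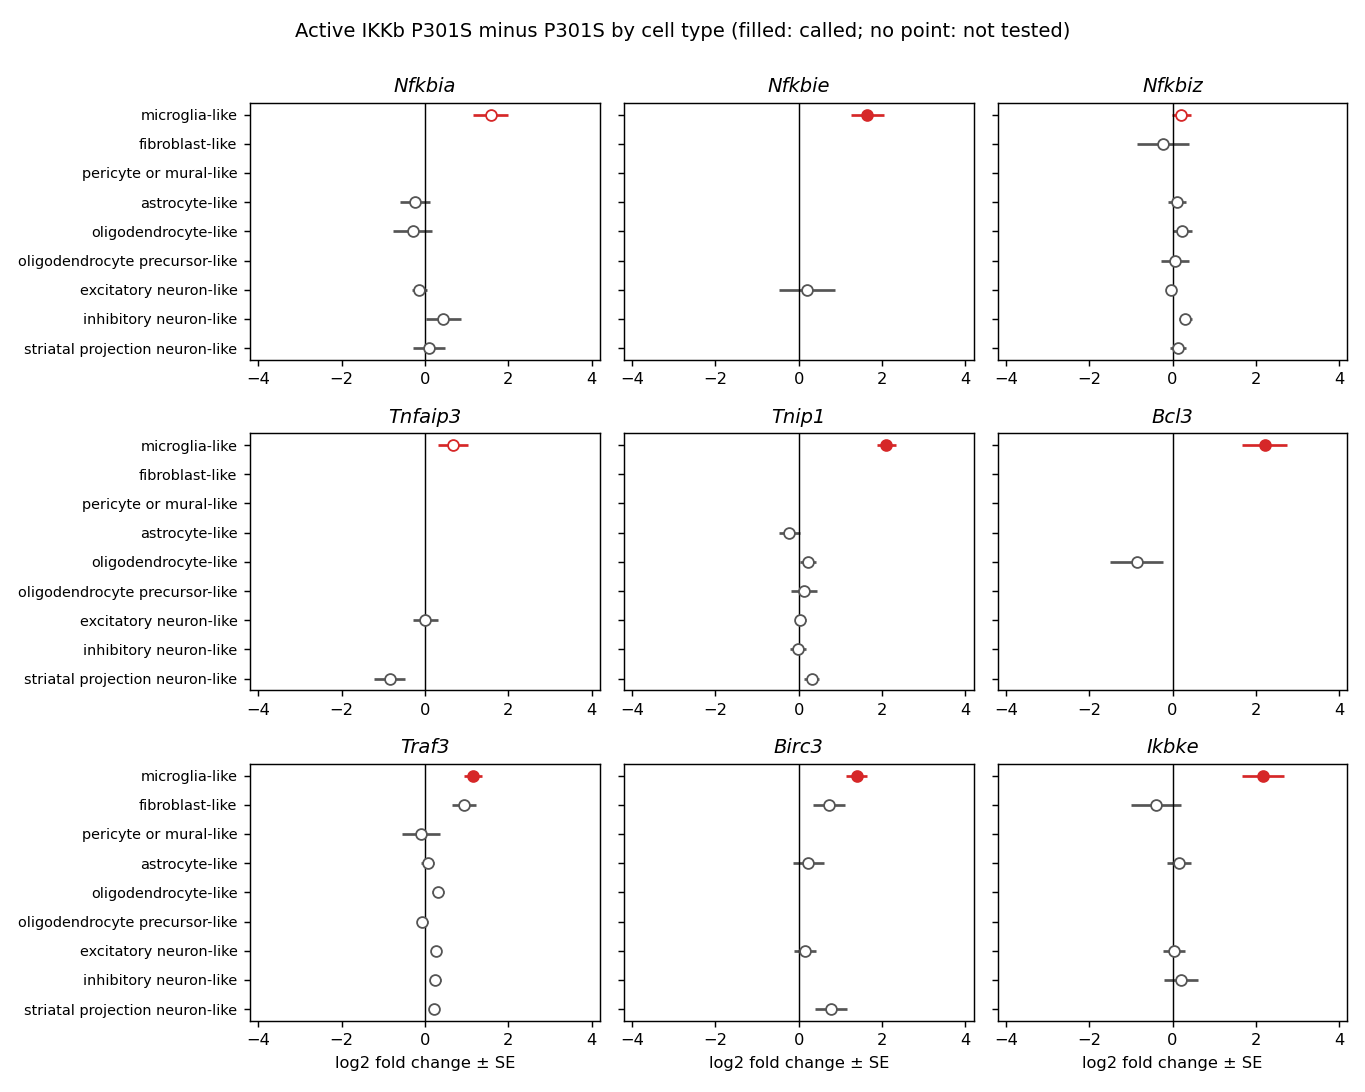
Log2 fold change with SE between active IKKβ P301S and P301S mice (horizontal axis) for each gene in each cell type (vertical axis), filled where called and without a point where not tested. Calls were made in microglia-like nuclei alone, and Traf3 in fibroblast-like nuclei (0.94) is not called.

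Whether the response in microglia-like nuclei differed from that in another type was tested directly, with the type by genotype interaction and the mouse as a block. Between active IKKβ P301S and P301S mice the change in microglia-like nuclei exceeded that in astrocyte-like nuclei for 5 of the 9 genes (0.507% of all genes were called higher), in oligodendrocyte-like nuclei for 4 (0.531%) and in excitatory neuron-like nuclei for 5 (0.65%). Against non-transgenic mice the counts were 4 (0.779%), 4 (0.905%) and 5 (1.24%), and against knockout mice 6 (0.537%), 3 (0.71%) and 5 (0.693%). Nfkbia, Tnip1 and Traf3 were called in all 9 of these tests. Against P301S mice, the 3 calls of Nfkbia were lost without active IKKβ replicate 2 (1.19, 1.24 and 1.34 against astrocyte-like, oligodendrocyte-like and excitatory neuron-like nuclei). They were also lost without P301S replicate 1 against astrocyte-like (1.58) and oligodendrocyte-like nuclei (1.46), and without P301S replicate 2 against astrocyte-like (1.56) and excitatory neuron-like nuclei (1.43). Mice were not left out in the interactions of the other contrasts. In the contrasts without active IKKβ mice 0 of the genes were called by edgeR, beside 0.101% of all genes. For Tnip1 between active IKKβ and P301S mice, the difference from astrocyte-like nuclei was 2.36 ± 0.30 (edgeR adjusted p = 7.46e-07), from oligodendrocyte-like 1.97 ± 0.24 (6.71e-08) and from excitatory neuron-like nuclei 2.18 ± 0.26 (2.56e-14). For Traf3 the same differences were 1.16 ± 0.20, 0.91 ± 0.19 and 1.0 ± 0.19. Nfkbia differed by 1.74 ± 0.42 from astrocyte-like nuclei (edgeR adjusted p = 0.023), although its change within microglia-like nuclei had not passed. Bcl3 differed from astrocyte-like nuclei by 3.99 ± 0.84 and from oligodendrocyte-like nuclei by 3.57 ± 0.68, and without P301S replicate 3 neither was called (3.32, edgeR adjusted p = 0.511, and 2.56, edgeR adjusted p = 0.56). The former was also lost without active IKKβ replicate 2 (3.04). In the microglia-like fit Bcl3 and Ikbke passed the filter on low counts only through the active IKKβ mice. Their interaction calls, included in the counts above, are given as a description.

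Shares of nuclei with a UMI of a gene were compared after every nucleus was thinned to 1000 UMIs, a depth that 4331 of the 4356 microglia-like nuclei reached. Tnip1 was then found in 1.77, 2.46, 2.77 and 2.83% of microglia-like nuclei in non-transgenic mice, 3.20, 3.16 and 4.68% in P301S, 3.14 and 1.08% in knockout and 14.9% in each active IKKβ mouse. The active mice stood apart, and unthinned their mean share was 30.2% against 4.56% in non-transgenic mice. Traf3 was in 11.9 to 19.9% of nuclei in non-transgenic, 14.0 to 22.8% in P301S, 14.1 and 20.9% in knockout and 39.7 and 41.4% in active IKKβ mice (unthinned mean 66.9% in active mice). Birc3 was in 2.77 to 7.55%, 4.00 to 6.96%, 4.25 to 5.41% and 14.6 to 15.8% (unthinned mean 31.5%). Free RNA can give a UMI to a nucleus that does not express a gene, so the same shares were taken in oligodendrocyte-like (median 1841.5 to 2884.5 UMIs per nucleus before thinning) and excitatory neuron-like nuclei (8660 to 14404). The share of excitatory neuron-like nuclei with a Birc3 UMI at the same depth was 0.05 to 0.40% over all mice, and that of oligodendrocyte-like nuclei at most 0.18%, so that the microglial shares of Birc3 lay above both. For Traf3 the excitatory neuron-like share of 10.4 to 16.7% overlapped that of microglia-like nuclei outside the active group. For Tnip1, oligodendrocyte-like nuclei were at 2.30 to 4.14%, overlapping the 1.08 to 4.68% of microglia-like nuclei outside the active group. Nfkbia reached 4.98 and 6.32% in active IKKβ mice against 0.54 to 3.56% in all others, which overlapped the 0.67 to 3.11% of oligodendrocyte-like nuclei. These overlaps do not measure free RNA, since the compared types may express the genes themselves. Traf3 averaged 134 CPM in excitatory neuron-like nuclei, and Tnip1 31.0 and Nfkbia 11.5 CPM in oligodendrocyte-like nuclei. How much of the microglial shares of these genes is free RNA was not tested. Ikbke reached 2.20 and 4.04% against 0 to 1.28%, while its share in oligodendrocyte-like nuclei stayed at or below 0.15%.

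**Figure D5:**
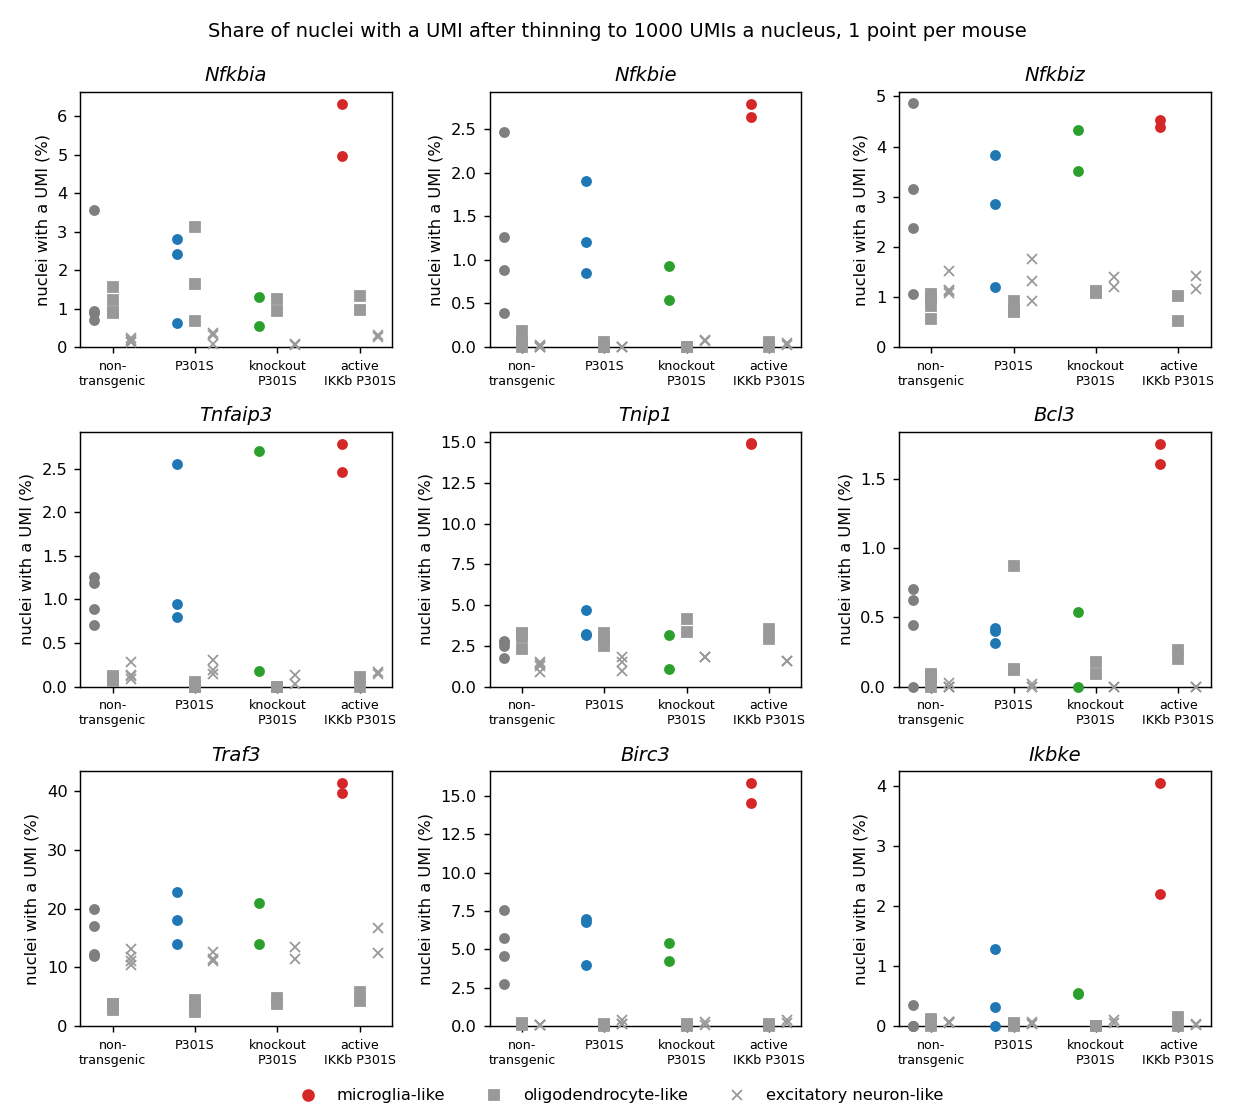
Percent of nuclei with a UMI of each gene after thinning to 1000 UMIs, 1 point per mouse, with microglia-like nuclei as circles coloured by genotype and oligodendrocyte-like and excitatory neuron-like nuclei as grey squares and crosses. For Tnip1 the active IKKβ mice reach 14.9% of microglia-like nuclei, against at most 4.68% in the other mice.

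Among the other genes of the pathway, 3 of 4 lists held 1 gene called higher against P301S mice and the fourth list 1 called lower, beside 1.01% of all genes called higher and 0.678% lower. Of 7 tested genes of the IKK complex and the NF-κB subunits, Relb, the partner of the non-canonical branch, was the 1 called against P301S mice (1.53 ± 0.28, edgeR adjusted p = 0.00265) and against knockout mice (1.96). Relb read 26.1, 52.0 and 80.3 CPM in P301S mice and 147 and 200 in active IKKβ mice. Against non-transgenic mice Relb (2.29) and Nfkb1, which encodes the p105 precursor of p50, were called (Nfkb1 0.63). Of 15 tested further inhibitors, 1 rose in each contrast with active mice, Tank, a scaffold that binds TRAF proteins and IKK-related kinases, at 104, 97.3 and 136 CPM in P301S and 310 and 277 in active IKKβ mice (1.32 ± 0.18, edgeR adjusted p = 8.9e-05). Of 24 tested adaptors and upstream kinases, Traf2 was the 1 called against P301S mice (1.13 ± 0.25) and against knockout mice (1.32). Against non-transgenic mice Traf2, Irak2 and Tifa were called (1.45, 0.52 and 1.84). Tifa, an adaptor that binds TRAF proteins, was also the 1 gene of these lists called between P301S and non-transgenic mice, at 15.3, 19.8, 34.6 and 30.3 CPM against 65.2, 73.8 and 93.4 (1.64 ± 0.25, edgeR adjusted p = 0.00848). Of 11 tested receptors, Tnfrsf11a (RANK) was lower in active IKKβ mice than in P301S (-0.69) and knockout mice (-0.81), and no receptor was higher.

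The genes whose microglial pattern over the 11 mice was most like each of the 9 were found by Pearson's r of log2 CPM, which describes mice that differ in genotype and depth. Each r is among the highest of 7142 or 7143 candidate genes, and how high it would reach by that selection alone was not tested. Relb was the closest to both Traf3 (r = 0.97) and Birc3 (r = 0.97), and after centring within each genotype the values were 0.93 and 0.95. Traf3 and Birc3 themselves had r = 0.96, or 0.89 within genotype. The next most like Traf3 was Fbrsl1 (0.96) and the next most like Birc3 was Pde4dip (0.96). Tnip1 was closest to Cd101, Rxrg and Apobec3 (0.98, 0.98 and 0.97). Nfkbia was closest to Specc1l, Nup54 and Ptgfrn (0.95, 0.90 and 0.90), and Nfkbie to Slc38a2, Vasp and Ppm1f (0.90, 0.89 and 0.89). Nfkbiz was closest to Rpl7l1, Rhot1 and Cd2ap (0.95, 0.92 and 0.90), and Tnfaip3 to Tyk2, Csf2rb2 and Unkl (0.89, 0.88 and 0.87). Bcl3 was closest to Ccdc122, Tmem131l and Vps41 (0.93, 0.91 and 0.91), and Ikbke to Prkcb, Igsf6 and Cd48 (0.94, 0.92 and 0.92). Among pairs of the 9, Nfkbia and Tnip1 had r = 0.88 over all mice and 0.90 within genotype, while Bcl3 and Tnip1 had 0.82 and -0.14.

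Transcripts of other cells were counted in the same microglia-like sums. The 14 neuronal transcripts summed to 17255 to 20877 CPM in non-transgenic, 13915 to 18744 in P301S, 19455 to 20565 in knockout and 14809 to 17581 in active IKKβ mice, and 0 of 14 were called in any contrast. All 14 fold changes were above 0 between knockout P301S and P301S mice and below 0 between active IKKβ and knockout mice. The 7 astrocyte transcripts summed to 787 to 810 CPM in knockout mice, above the 546 to 704 of every other mouse, and 1 of the 5 tested, Slc1a2, was lower in active IKKβ than in knockout mice (-0.71, edgeR adjusted p = 0.0312). The 7 oligodendrocyte transcripts summed to 292 to 538 CPM, with 0 called, and all 7 were above 0 between knockout P301S and P301S mice. The neuronal fold changes were above 0 for 0 of 14 between P301S and non-transgenic mice (median -0.23) and for 1 of 14 between active IKKβ and non-transgenic mice (median -0.22). Between active IKKβ and P301S mice 6 of 14 were above 0 (median -0.02). The part of these transcripts in the results was not tested. Border macrophage genes summed to 11.5 to 442, 43.9 to 308, 209 to 216 and 61.2 to 230 CPM, overlapping between all groups, and without the 91 nuclei that had at least 3 of their UMIs the counts of called genes were 6, 7 and 7 as before. Genes of monocytes, neutrophils and lymphocytes summed to at most 20.9 CPM in any mouse, and 6 of the 14 had no UMI at all. Of 6 tested stress and immediate early genes 0 were called by edgeR.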

How the data were processed

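Nuclei from frozen cortex of 11 mice were sorted by DAPI and sequenced by the authors with 10x Genomics 3' chemistry, and reads were aligned to mm10 and counted by Cell Ranger 3.1.0 with introns included. The deposited matrices hold raw UMI counts per gene and barcode, not normalized and not filtered beyond cell calling. The 9 genes and all gene lists were chosen with earlier results of these data known.

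Barcodes were kept at 300 to 8000 genes and no more than 5% of UMIs from mitochondria, and doublets were removed with a nearest-neighbour caller written for this work (40 components, 20 neighbours, 0.8% per 1000 barcodes), which is not the DoubletFinder of the study. Nuclei were clustered (15 components, 20 neighbours, Leiden resolution 0.1) without the 9 genes among the variable genes and named "-like" from listed markers, so names may differ from those of the study. UMIs were summed per mouse and type. Types with at least 10 nuclei in every mouse were tested in edgeR 4.0.16 (quasi-likelihood, TMM, all 4 groups, filterByExpr, Benjamini-Hochberg over all genes, adjusted p under 0.05 and absolute log2 fold change over 0.1). The study used MAST on single nuclei, where nuclei and not mice are the replicates. Microglia-like sums held 383384 to 1634450 UMIs per mouse, and intervals and floors (3 counts) cover counting error only. The fit was checked on simulated counts with known changes. Alternatives were DESeq2 1.42.0, library size and RLE scaling, no filter, compared groups alone, line and age covariates, within-line fits, the number in the sample titles as a block, doublets kept, border macrophages left out, thinning and leaving out each mouse. A group left with 1 mouse takes its spread from the other groups. All 9 genes are described, and of the other genes those of the pathway lists that were called, with the 3 most alike per gene by Pearson's r.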

Additional observations from a re-analysis of the deposited data

Results flagged for a closer look

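The change between active IKKβ P301S and P301S mice differed between microglia-like nuclei and another cell type in 14 tests (type by genotype interaction, edgeR). Against astrocyte-like nuclei it was larger in microglia-like nuclei by 1.74 for Nfkbia, 2.36 for Tnip1, 3.99 for Bcl3, 1.16 for Traf3 and 2.19 for Ikbke on the log2 scale. Against oligodendrocyte-like nuclei it was larger by 1.78 for Nfkbia, 1.97 for Tnip1, 3.57 for Bcl3 and 0.91 for Traf3. Against excitatory neuron-like nuclei it was larger by 1.85 for Nfkbia, 2.18 for Tnip1, 1.0 for Traf3, 1.43 for Birc3 and 2.42 for Ikbke. Tnip1 and Traf3 stayed called in all 3 types under library size scaling and without any 1 of the 5 mice, alternatives added after seeing the data. Bcl3 and Ikbke passed the filter of the microglia-like fit only through the active IKKβ mice, so their differences here are a description. Bcl3 was not called without P301S replicate 3 (3.32 against astrocyte-like and 2.56 against oligodendrocyte-like nuclei). Against astrocyte-like nuclei it was also not called without active IKKβ replicate 2 (3.04). Nfkbia was not called without active IKKβ replicate 2 in any of the 3 types (1.19 to 1.34), nor without P301S replicate 1 or 2 in 2 types each (1.43 to 1.58). Ikbke was not called without active IKKβ replicate 2 against astrocyte-like (1.28) and excitatory neuron-like nuclei (1.49), and against the latter also without P301S replicate 1 (2.07) or 2 (2.18). Birc3 against excitatory neuron-like nuclei was not called when either active mouse was left out (1.38 and 1.46).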

How the results depend on the processing

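Depth limits the low genes most, since Nfkbie, Bcl3 and Ikbke passed the filter only through the active IKKβ mice, and 2 mice a group limit every contrast with knockout or active mice. The counts of called genes among the 9 kept within 1.5 times of the reported ones under library size and RLE scaling, with the compared groups alone and without border macrophages (an alternative added after seeing the data). Against P301S mice the count of 6 for active IKKβ mice was 3 with DESeq2, 3 with line as a covariate, 1 within the active line, 3 with doublets kept and 3 after thinning, and 3 to 5 without 1 mouse (3 without P301S replicate 1 or 2 or active IKKβ replicate 2). Against non-transgenic mice the count of 7 was 4 after thinning and 4 to 7 without 1 mouse (4 without active IKKβ replicate 2). Against knockout mice the count of 7 was 4 with DESeq2, 1 with line and 1 with age as a covariate, 4 with doublets kept and 4 after thinning, and 2 to 5 without 1 mouse (2 without knockout replicate 2, 3 without active IKKβ replicate 2). After thinning 5 of the 9 genes were tested. DESeq2, run on the unthinned sums, gave 4 of the 9 an adjusted p against P301S mice (Nfkbiz, Tnip1, Traf3 and Birc3). Nfkbie, Bcl3 and Ikbke had none there, so their calls were not tested by DESeq2 in that contrast. Between P301S and non-transgenic mice 1 gene, Ikbke (2.41), was called with no filter, and 0 were without any 1 mouse. The 2 contrasts of knockout mice with controls had 0 called in every alternative. A further fit blocked on the number in the sample titles (1 or 2), which is not the replicate number used here. Its counts were 5, 7 and 6 for active IKKβ against P301S, non-transgenic and knockout mice. Between mice of the same title number the correlation of deviations was -0.07 to 0.13 over 22 pairs (median 0.01). For other title numbers it was -0.13 to 0.07 (median -0.01). The deviations were taken from the group mean, so in a group of 2 the mice mirror each other. Whether the title numbers pair the mice could not be decided from these values. Microglia-like nuclei were the highest type for 5 genes instead of 8 in the non-transgenic mice alone. For Nfkbia and Bcl3 the type then highest was at 0 in non-transgenic replicates 1 and 4. For the interaction of active IKKβ against P301S mice the count was 2 to 6 without 1 mouse for astrocyte-like (2 without active IKKβ replicate 2), 3 to 4 for oligodendrocyte-like and 2 to 5 for excitatory neuron-like nuclei (2 without active IKKβ replicate 2, 3 without P301S replicate 2). Tnip1 stayed called against P301S mice in all 17 settings (1.80 to 2.48), and Traf3 and Birc3 in 16 of 17, with 0.76 and 1.03 within the active line. Tnfaip3 against non-transgenic mice was called with no filter (1.30) and the compared groups alone (1.24), and Nfkbia against P301S mice with no filter (1.60), the compared groups alone (1.58) and the block (1.76). Over all genes, calls for P301S against non-transgenic mice were 16, and 129 with no filter, 38 with line as a covariate, 74 within line, 7 with DESeq2 and 3 with the block. No fold change of a called gene changed sign, and except where fewer genes or mice were tested the cause of a change was not tested.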
